A study of Rattus norvegicus with 16 samples.

Results

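The most abundant annotated transcripts of the rat heart were taken as the rows with an Ensembl rat transcript identifier that were listed in all 16 libraries and had a mean deposited abundance of at least 100 over those libraries. This rule found 479 transcripts, called members here, among 12553 annotated rows and 31042 rows of any kind that were shared by all 16 libraries. The files together listed 34480 rows. The members were chosen by their mean over the 16 libraries, so their high level is a description. The members just inside the limit were ENSRNOT00000075480, with a mean of 100.4, and ENSRNOT00000011508, also at 100.4. The annotated rows just outside it were ENSRNOT00000025203, with a mean of 98.7, and ENSRNOT00000047494, with a mean of 98.6. Of the members, 41 had a mean of at least 1000, 224 lay between 200 and 1000, and 214 lay between 100 and 200.

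Heart tissue was compared between Wistar Kyoto rats (WKY), a strain with normal blood pressure, and spontaneously hypertensive rats (SHR), an inbred strain that develops high blood pressure and an enlarged heart. The 5 WKY and 5 SHR libraries came from rats given distilled water by stomach tube for 10 weeks. The 6 neferine libraries came from SHR given neferine, an alkaloid of the lotus seed embryo, by the same route at 10 mg/kg per day for 10 weeks. The question was which transcripts differ between the strains and with neferine. The labels name each rat by group and number, and each was taken as a separate animal, since the labels do not say more. Age and sex are not given in the sources used here. The library SHR 1 has a description that reads WKY, while its title, strain, genotype and group read SHR. It was kept as SHR.

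A heart muscle cell holds many mitochondria and a dense array of contractile filaments. Transcripts of the mitochondrial genome and of contractile proteins are known to take a large share of heart RNA. When ribosomal RNA is removed before sequencing, as it was here, a small number of very abundant transcripts can therefore set much of a library's composition. The deposited identifiers were not paired with gene names, and none of the 479 (0) matched the reference tables used here. Members are named by identifier only, their functions are not stated, and heart cell markers could not be checked. Whether the values are scaled by transcript length is not given, so the order of transcripts below is the order of deposited values. In tissue RNA, fewer cells of one type and less RNA per cell cannot be told apart.

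Some libraries stood apart among the members. WKY 1, WKY 3, SHR 3 and SHR 4 were the 4 highest of the 10 libraries from water-treated rats for 221 of the 479 members, and the next commonest set of 4 held that place for 16. No such count was made over all tested rows. WKY 6, SHR 1 and SHR 6 had low values of 2 leading transcripts. The values were not rescaled, and both sets were at the extremes of the sum of shared rows. WKY 1, WKY 3, SHR 3 and SHR 4 had the highest sums of all 16 libraries, from 658396 to 682831. WKY 6, SHR 1 and SHR 6 had the lowest, from 547552 to 598297. Without the 10 leading rows, the sums relative to their geometric mean were 1.06 to 1.09 in the 4 libraries and 1.01 to 1.03 in these 3. By the median of row ratios the factors were 0.946 to 1.01 in the 4 and 1.03 in each of the 3. On that measure the 4 were not high, and on neither measure were the 3 low. Both sets hold libraries of both strains, and the labels give no batch, so the results are given with and without them where they differ. These sets were chosen after the values were seen.

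The members made up 58.1% to 68.3% of the summed abundance of all shared rows in each library. In WKY the lowest, median and highest shares were 58.1%, 67.2% and 68.2%, with a mean of 65.6% ± 4.24 (SD, n = 5). In SHR they were 59.9%, 67.1% and 68.3%, with a mean of 65.1% ± 3.90 (SD, n = 5). In neferine-treated SHR they were 63.9%, 66.2% and 68.0%, with a mean of 66.1% ± 1.62 (SD, n = 6). The groups overlapped, and their means differed by less than 1 SD of any group. The low values came from WKY 6, SHR 1 and SHR 6 (61.9%), and without those libraries the WKY mean was 67.5% and the SHR mean 67.8%.

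The 10 members of highest mean were also the 10 shared rows of highest mean, annotated or not. They alone held a mean of 36.1% ± 5.05 (SD, n = 5) of the sum in WKY, 37.0% ± 4.93 (SD, n = 5) in SHR and 38.7% ± 2.98 (SD, n = 6) under neferine. The other 469 members held 29.5% ± 2.15, 28.1% ± 2.34 and 27.3% ± 1.38 in the same groups and in the same order. When those 10 rows were taken out of both the members and the sum, the other members held 41.6% to 49.3% in WKY, with a mean of 46.3% ± 3.09 (SD, n = 5). They held 41.4% to 48.5% in SHR, with a mean of 44.6% ± 3.05 (SD, n = 5). Under neferine they held 44.3% to 45.1%, with a mean of 44.6% ± 0.278 (SD, n = 6). The neferine libraries thus lay inside the range of both water-treated groups on this measure.

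Between 21 and 87 rows were enough to reach 50% of the sum of a library, with SHR 2 the most concentrated and WKY 6 the least. Between 399 and 469 of the 479 members reached 100 in a single library. The 2718 annotated rows with a mean from 10 to under 100 held 11.0% to 14.1% of the sum. The 130 assembled rows with a mean of at least 100, which carry no Ensembl identifier, held 5.26% to 10.7%. The 3 libraries with the highest share of these assembled rows were WKY 6 (10.7%), SHR 1 (10.6%) and SHR 6 (8.31%), the same libraries in which the members' share was lowest.

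**Figure D1:**
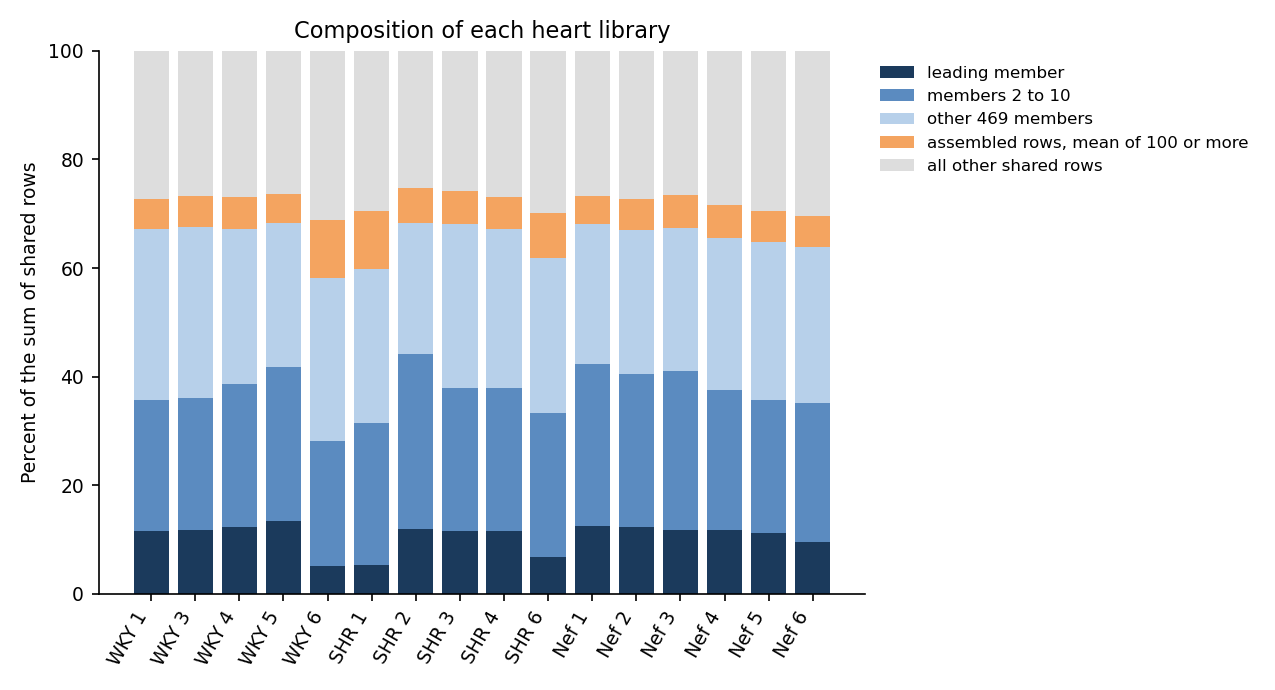
Stacked bars show what percent of the summed abundance of shared rows (vertical axis) came from the leading member, members 2 to 10, the other 469 members, abundant assembled rows and all other rows in each of the 16 libraries (horizontal axis; Nef, neferine-treated SHR). The 3 blue parts reach 58.1% in WKY 6, 59.9% in SHR 1 and 61.9% in SHR 6, and 63.9% to 68.3% in the other libraries.

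The leading transcript, ENSRNOT00000050156, had a mean of 67248, which was 10.8% of the mean library sum. Its values were 76028, 77833, 76164, 82235 and 28476 in WKY 1, 3, 4, 5 and 6, and 31755, 74876, 78957, 77349 and 41172 in SHR 1, 2, 3, 4 and 6. Under neferine it had a lowest value of 59313, a median of 74178 and a highest value of 77623. WKY 6, SHR 1 and SHR 6 were low, Nef 6 lay below the other neferine libraries, and all 3 groups overlapped. The transcript held rank 1 in 14 of 16 libraries, rank 2 in WKY 6 and rank 4 in SHR 1. The log2 difference of SHR from WKY was -0.16 (SE 0.30), with a limma Benjamini-Hochberg adjusted p of 0.913.

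ENSRNOT00000042098 was abundant in 13 libraries and nearly absent in 3. It had 33862, 32086, 35493 and 38209 in WKY 1, 3, 4 and 5 and 15.7 in WKY 6. In SHR 2, 3 and 4 it had 41039, 35717 and 36090, and in SHR 1 and 6 it had 10.6 and 8.78. In all 6 neferine libraries it lay between 33070 and 38781. It held rank 2 or 3 in 13 libraries and a rank from 473 to 476 among the members in WKY 6, SHR 1 and SHR 6. The SHR minus WKY difference was -2.40 on the log2 scale, with a 95% interval from -8.06 to 3.26 and a limma adjusted p of 0.836. Neferine minus SHR was 4.63, also with a limma adjusted p of 0.836. Neither difference passed the test. Without those 3 libraries the differences were 0.11 and -0.08, so their size rested on them.

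In the same 3 libraries, an assembled locus named MERGE.21425 in the files was high. Its rows summed to 32493 in WKY 6, 28155 in SHR 1 and 15823 in SHR 6, against 1485 to 9879 in the other 13 libraries. The locus was picked after its values were seen, and its part in the low values of ENSRNOT00000042098 and ENSRNOT00000050156 was not tested.

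ENSRNOT00000043693, the member with the next highest mean after the leading one, overlapped in all 3 groups. Its mean was 35184 ± 3874 (SD, n = 5) in WKY, 37133 ± 3907 (SD, n = 5) in SHR and 34287 ± 2555 (SD, n = 6) under neferine, and it held rank 1, 2 or 3 in every library. ENSRNOT00000040993 had 21968, 25656, 27533, 31229 and 21066 in WKY and 38599, 39615, 28679, 27576 and 38653 in SHR, each in the order of the library numbers. Under neferine it ran from 23462 to 33822 with a median of 29546. SHR 1, 2 and 6 were above every WKY library, while SHR 3 and 4 lay inside the WKY range. The SHR minus WKY difference was 0.44 (SE 0.142), and at a limma adjusted p of 0.15 it did not pass.

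ENSRNOT00000047550 was higher in SHR than in WKY. It had 23246, 24747, 24585, 25247 and 25960 in WKY and 33561, 35258, 31160, 29974 and 35552 in SHR. Under neferine it had a lowest value of 26307, a median of 29625 and a highest value of 32750. All 5 SHR and all 6 neferine libraries lay above all 5 WKY libraries, and the SHR and neferine libraries overlapped. The SHR minus WKY log2 difference was 0.42 (SE 0.075, limma adjusted p = 0.00384). It was called in 24 of 28 fits. Among the losses, it was not called when libraries were scaled to the same sum, with or without the 10 leading rows, and without WKY 6, SHR 1 and SHR 6, where it was 0.39 to 0.41. Neferine minus WKY was 0.25, with a limma adjusted p of 0.0698.

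ENSRNOT00000041241 showed the same order with less spread. Its values were 7542, 8354, 7912, 8252 and 8341 in WKY and 11196, 11428, 11183, 10514 and 9841 in SHR. Under neferine it ran from 9019 to 10097 with a median of 9626. SHR and WKY did not overlap, and 1 SHR library, SHR 6, lay inside the neferine range. SHR was higher than WKY by 0.42 (SE 0.056, limma adjusted p = 2.07e-04), a ratio of means of 1.34, and this call was made in all 28 fits that were run. Neferine minus SHR was -0.18 (SE 0.053), with a limma adjusted p of 0.819. Neferine minus WKY was 0.24 (limma adjusted p = 0.0174), a call made in 21 of 28 fits and lost, among others, under each of the 3 other scalings and without WKY 1 or WKY 4.

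The other 4 leading transcripts showed no called difference. ENSRNOT00000006184 had 19338 and 18651 in WKY 1 and 3 and 19793 and 17050 in SHR 3 and 4, against 10351 to 12969 in the other 12 libraries. ENSRNOT00000028458 split in the same way, with 9324, 9402, 9473 and 7815 in those 4 libraries and 4984 to 6957 elsewhere. ENSRNOT00000048767 went the opposite way, with 4876, 4522, 5060 and 5852 in the 4 libraries and 6263 to 10678 elsewhere. Each of these transcripts thus separated the 4 libraries from the rest across both strains. ENSRNOT00000011773 did not, with 6691 ± 240.2 (SD, n = 5) in WKY, 6215 ± 671 (SD, n = 5) in SHR and 6239 ± 588 (SD, n = 6) under neferine.

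**Figure D2:**
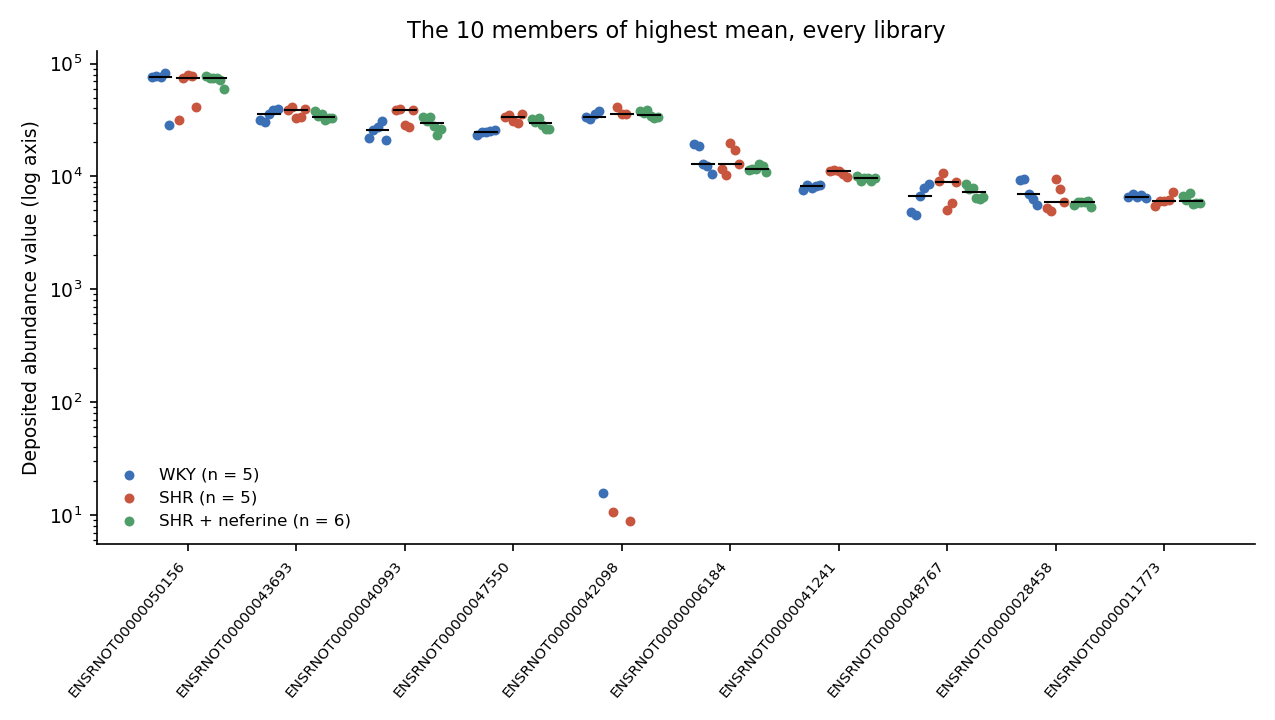
Each point is the deposited abundance (vertical axis, log scale) of 1 of the 10 members of highest mean (horizontal axis) in 1 library, coloured by group, and short lines are group medians. ENSRNOT00000042098 sits at 8.78 to 15.7 in 3 libraries and at 32086 to 41039 in the other 13, while ENSRNOT00000041241 separates WKY from SHR.

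The members varied less within groups than most rows did. The coefficient of variation, the SD as a percent of the mean, had a median over the members of 15.0% in WKY, 16.8% in SHR and 10.2% under neferine. Over all tested rows the medians were 34.3%, 35.1% and 33.7%. Annotated rows with a mean from 10 to under 100 had 15.4%, 16.2% and 13.7%, close to the members in the water-treated groups. Abundant assembled rows had 20.6%, 26.1% and 16.5%. Leaving the 10 leading members out gave 14.9%, 16.7% and 10.4%, so those 10 did not set the medians. The 10 leading members themselves had medians of 19.8%, 22.5% and 8.24%.

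The neferine libraries had the lowest coefficient of variation for 277 members, WKY for 127 and SHR for 75. That count was not made for other rows. A value under 10% was reached by 234 members (48.9%) under neferine, 134 (28.0%) in WKY and 106 (22.1%) in SHR. Over all tested rows the shares were 10.1%, 7.59% and 6.3% in the same order. Over annotated rows with a mean from 10 to under 100 they were 31.0%, 25.5% and 21.5%, near the members in WKY and SHR. Without WKY 1, WKY 3, SHR 3 and SHR 4 the median was 7.76% over the other 3 WKY libraries and 9.76% over the other 3 SHR libraries. Those 4 libraries had been picked for their high values, so leaving them out lowers the spread by construction, and no order of the groups is read from these values. Without WKY 6, SHR 1 and SHR 6 it was 13.4% in WKY and 19.5% in SHR. The counts of members were not recomputed for either set. Whether handling or sequencing differed between the libraries is not given in the labels.

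The 2 members with the least spread were ENSRNOT00000010701 and ENSRNOT00000016060. The former had 167.0 ± 3.70 (SD, n = 5) in WKY, 165.7 ± 8.66 (SD, n = 5) in SHR and 163.1 ± 4.33 (SD, n = 6) under neferine. The latter had 254.5 ± 4.72, 239.5 ± 15.4 and 216.4 ± 5.77 in the same groups. With so little spread, its neferine minus WKY difference of -0.23 passed the test (limma adjusted p = 0.0141), though not when libraries were scaled to the same sum, with or without the 10 leading rows.

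**Figure D3:**
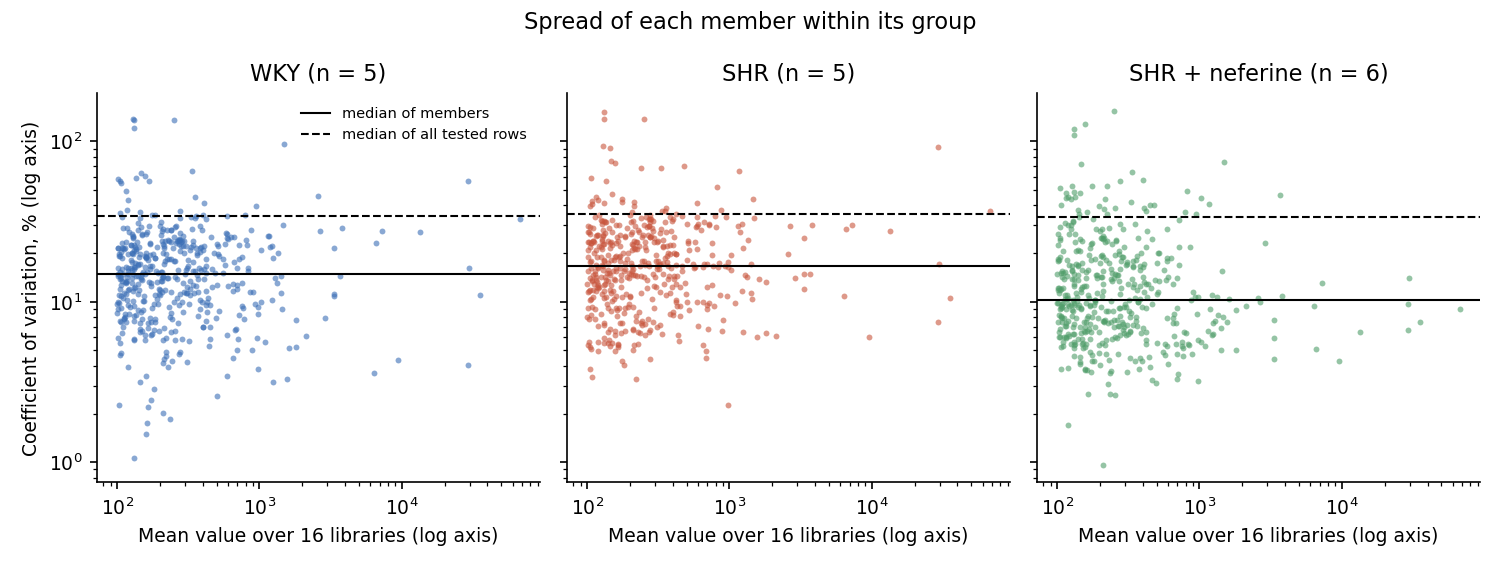
Each point is 1 of the 479 members, with its mean over 16 libraries (horizontal axis, log scale) and its coefficient of variation within 1 group (vertical axis, percent, log scale); the solid line is the median of the members and the dashed line that of all tested rows. The solid line lies at 15.0% in WKY, 16.8% in SHR and 10.2% under neferine, and the dashed line at 33.7% to 35.1%.

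A small group of members varied widely among rats of the same group. In 20 of the 479 members (4.18%), the highest library of a group was at least 10 times the lowest. The same held for 36.9% of all tested rows, for 206 of 2717 tested annotated rows with a mean from 10 to under 100 (7.58%), and for 31 of 124 tested abundant assembled rows (25.0%). Of the 20, 10 did so in 1 group, 5 in 2 groups and 5 in all 3 groups. Not all of the 20 reached very low values: ENSRNOT00000011005 ran from 370.5 to 3767 over the 16 libraries, and ENSRNOT00000024186 from 127 to 1311. None of the 20 (0) passed the test in any comparison. They were chosen for a wide range inside a group, which raises the spread that the test uses, so little is learned from this. Of 7664 member values, 13 were listed at 0, and these fell in 8 members.

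The 2 members of highest spread switched between high and very low values in every group. ENSRNOT00000081819 lay between 251 and 338 in WKY 3, WKY 4, SHR 2, SHR 6, Nef 3, Nef 5 and Nef 6, and at 1.03 or less in the other 9 libraries. ENSRNOT00000013608 lay between 513 and 861 in WKY 1, WKY 3, SHR 3, SHR 4, Nef 4 and Nef 5, and between 1.07 and 1.47 in the other 10. The high libraries of the latter included the 4 that stood apart among the water-treated rats.

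Other members were low in 1 or a few libraries. ENSRNOT00000048044, the member of rank 12, had 179 in Nef 6 and 3386 to 4792 in the other 15 libraries. ENSRNOT00000059127 had 50.3 in SHR 2 and 626 to 1723 elsewhere. ENSRNOT00000001518 was listed at 0 in SHR 2, ENSRNOT00000015545 at 0 in WKY 6, and ENSRNOT00000073270 at 0 in Nef 1. ENSRNOT00000073160 was listed at 0 in WKY 4, 5 and 6 and in SHR 1 and 2, and had 84.3 to 252.6 in all 6 neferine libraries. Its neferine minus SHR difference, 3.02 on the log2 scale (SE 1.84), did not pass (limma adjusted p = 0.848). These examples were chosen after their values were seen.

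**Figure D4:**
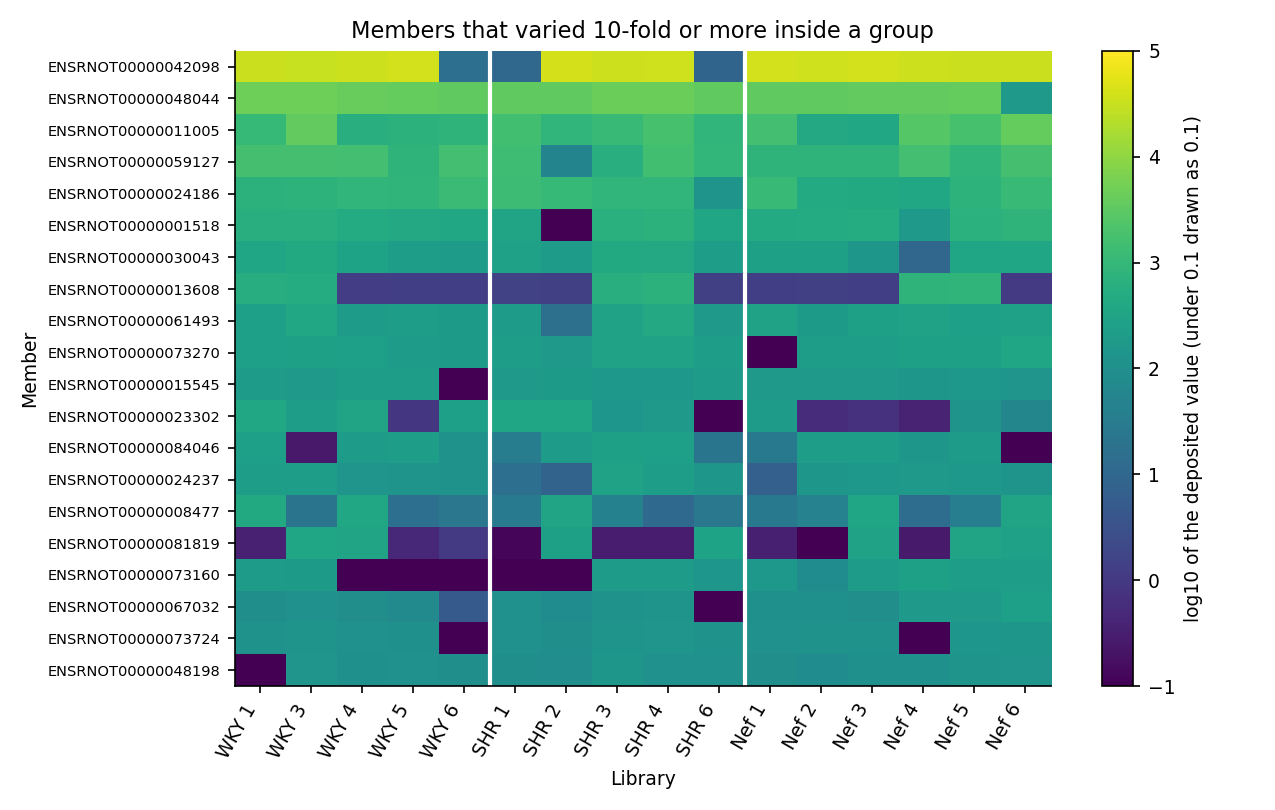
Colour gives the log10 of the deposited abundance, with values under 0.1 drawn as 0.1, of the 20 members (vertical axis) that varied at least 10-fold inside a group, in each of the 16 libraries (horizontal axis). ENSRNOT00000042098 is dark in WKY 6, SHR 1 and SHR 6 alone, and dark cells of other members fall in all 3 groups.

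Differences between groups were tested with limma on log2(value + 1) over the 24577 shared rows with at least 5 libraries at 1 or more, with all 3 groups in 1 fit. All 479 members were among the rows tested. Members were chosen on a mean over all libraries, most of them from SHR with or without neferine. A transcript high in SHR and low in WKY could therefore become a member more easily than the reverse. The effect of that choice on the counts below was not tested. A call was a Benjamini-Hochberg adjusted p under 0.05 over all tested rows, and each difference given is one of log2(value + 1). The strain comparison and the 2 neferine comparisons share libraries with each other.

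Between the strains, 23 of the 479 members were called, 10 higher and 13 lower in SHR than in WKY. That is 4.8% of the members, beside 2.93% of all tested rows (1.89% higher and 1.04% lower) and 3.35% (91 of 2717) of annotated rows with a mean from 10 to under 100. Called members mostly differed by little. The median size of a called log2 difference was 0.42 among the members and 1.14 among all called rows, and 5 of the 23 reached 1. It was 0.79 among called annotated rows with a mean from 10 to under 100. The median SE was 0.137 over the members, 0.144 over those annotated rows and 0.240 over all tested rows. Smaller differences could therefore pass among the members than among most rows. The median difference over all members was -0.03, and over all tested rows it was -9.9e-05. For 27 members, 10 higher and 17 lower, all SHR libraries lay on one side of all WKY libraries, as they did for 4.45% of all tested rows (2.52% higher and 1.92% lower). Without the 10 leading members 21 of 469 were called, 8 higher and 13 lower. The 2 called leading members, both higher in SHR, were ENSRNOT00000047550 and ENSRNOT00000041241.

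The count of called members depended on the libraries. It was 11 without WKY 1, WKY 3, SHR 3 and SHR 4, and 5 without WKY 6, SHR 1 and SHR 6, in each case all of them among the 23. With a single library left out it ranged from 15 to 24, and it was 15 without WKY 1 and 15 without SHR 6. Fitting the 2 groups alone gave 13. The balance of directions also turned with the libraries. It was 13 higher and 9 lower without SHR 2, 9 and 6 without WKY 1, 9 and 8 without WKY 3, 7 and 4 without the first set of libraries, 3 and 2 without the second, and 7 and 6 with the 2 groups alone. The median difference over the members was 0.03 without SHR 2, 0.02 without WKY 1 and 0.02 without WKY 3. In all 28 fits, 5 members were called, among them ENSRNOT00000041241 and ENSRNOT00000024106.

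ENSRNOT00000024106 had the largest difference among the members that passed. It had 26.2, 20.3, 20.2, 18.9 and 19.2 in WKY and 275.0, 264.6, 326.2, 305.7 and 322.4 in SHR. Under neferine it ran from 287.5 to 294.8 with a median of 291.6. No SHR or neferine library came near a WKY library, and the neferine libraries lay inside the SHR range. All of its WKY values lay below the limit set on the mean, so it was a member only through its SHR and neferine values. SHR was higher than WKY by 3.78 on the log2 scale (SE 0.086, limma adjusted p = 1.21e-13), a ratio of means of 14.3. Neferine-treated SHR was higher than WKY by 3.75 (limma adjusted p = 5.61e-14). Its coefficient of variation under neferine, 0.963%, was the lowest of any member in that group.

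ENSRNOT00000066674 was the other member with the largest rise. It had 61.3, 97.8, 70.8, 80.9 and 82.4 in WKY and 226.1, 168.1, 105.3, 148.4 and 183.2 in SHR. Under neferine it ran from 98.4 to 193.5 with a median of 169.5. The lowest SHR library, SHR 3, was just above the highest WKY library, WKY 3. All of its WKY values also lay below the limit set on the mean of members. SHR was higher by 1.04 (SE 0.223, limma adjusted p = 0.015), a ratio of means of 2.11, and the call was lost without WKY 6, SHR 1 and SHR 6.

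The largest falls were those of ENSRNOT00000090422 and ENSRNOT00000051483. ENSRNOT00000090422 had 1905, 2464, 1482, 806 and 1304 in WKY and 953, 461, 838, 652 and 442 in SHR. Under neferine it ran from 413 to 1008 with a median of 579.8. WKY 5 lay inside the SHR range, so the groups overlapped. The difference was -1.22 (SE 0.311, limma adjusted p = 0.0472). It was called in 11 of 28 fits, and the losses included those without WKY 1, 3, 4 or 6 and without SHR 2, 3, 4 or 6, or Nef 1, 2, 4 or 5.

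ENSRNOT00000051483 had 1116, 1186, 998, 533 and 974 in WKY and 645, 291, 458, 370 and 330 in SHR. Under neferine it ran from 314 to 606 with a median of 378. Here again WKY 5 was the lowest WKY library and SHR 1 the highest of SHR, and the 2 groups overlapped through them. The difference was -1.20 (SE 0.258, limma adjusted p = 0.0153). It was called in 25 of 28 fits, and the losses included those with either set of libraries that stood apart left out, at -1.02 and -1.32.

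**Figure D5:**
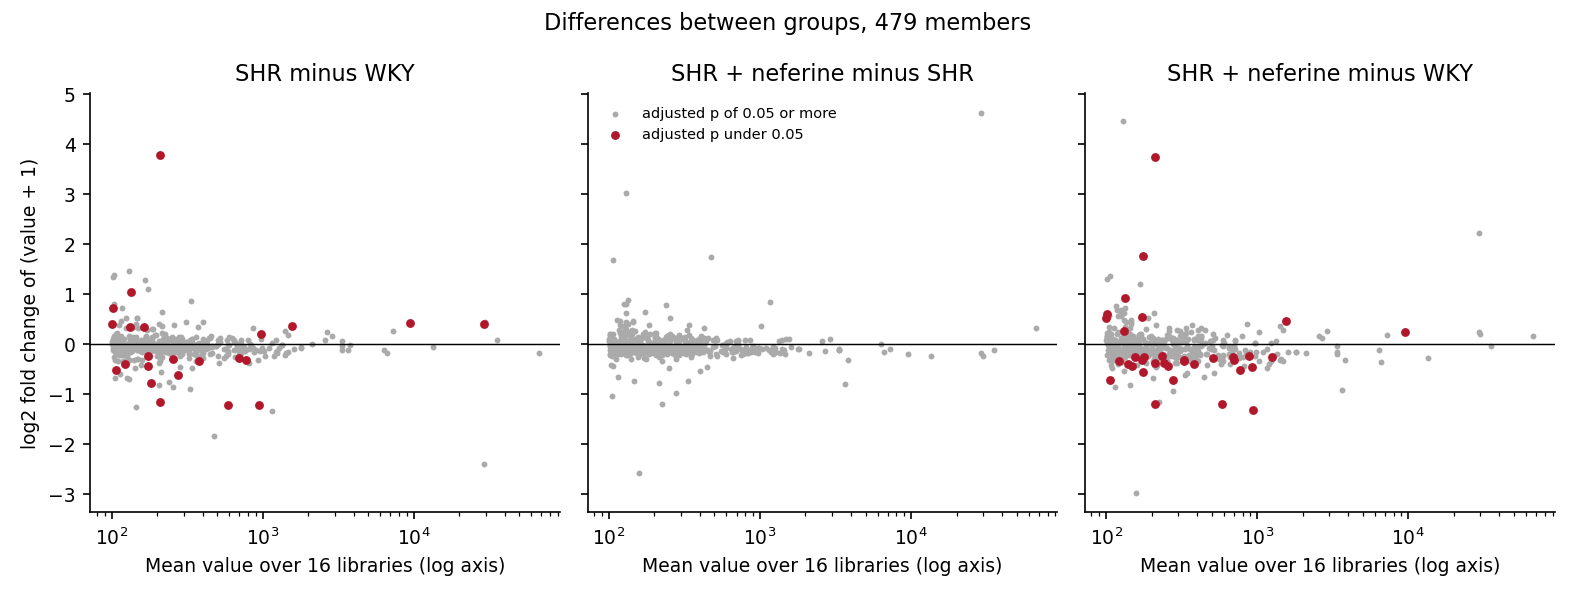
Each point is 1 of the 479 members, with its mean over 16 libraries (horizontal axis, log scale) and its log2 difference (vertical axis) in the 3 comparisons; red points passed an adjusted p under 0.05 in limma. There are 23 red points for SHR minus WKY, 0 for neferine minus SHR and 35 for neferine minus WKY, and ENSRNOT00000024106 lies near 3.8 in the 2 comparisons with WKY.

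Between neferine-treated and water-treated SHR, 0 of the 479 members were called by limma, beside 0.00407% of all tested rows, which is 1 row. At an unadjusted p under 0.05 there were 26 members, 7 higher and 19 lower under neferine, beside 5.88% of all tested rows (4.01% higher and 1.87% lower). The smallest adjusted p of a member was 0.733. The count was also 0 in each of the 27 alternative fits. The 95% interval of the difference lay within a 2-fold change either way for 444 members (92.7%), against 68.6% of all tested rows, and within a 1.5-fold change for 382 (79.7%), against 41.6%. Annotated rows with a mean from 10 to under 100 came nearer to the members, at 86.4% and 71.4%. The median difference was -0.06 over the members and 0.04 over all tested rows. For 3 members, all of them lower, every neferine library lay below every SHR library. Such a separation was found in 0.517% of all tested rows, 0.317% higher and 0.199% lower.

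The members nearest to a call were lower under neferine. ENSRNOT00000017686 had 1040, 1056, 1090, 1048 and 1092 in SHR and ran from 882 to 962 under neferine, with a median of 951. The groups did not overlap, and WKY, at 920.8 ± 34.9 (SD, n = 5), overlapped with the neferine libraries. Neferine minus SHR was -0.18 (SE 0.044), with a limma adjusted p of 0.733. SHR minus WKY was 0.21 (limma adjusted p = 0.0181), a call made in 20 of 28 fits. The losses included each of the 3 other scalings, the fit of the 2 groups alone, and the fits without SHR 6, without WKY 4, and without WKY 6, SHR 1 and SHR 6. The other was ENSRNOT00000041241, given above, with an adjusted p of 0.819 in limma.

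Among members higher under neferine, ENSRNOT00000004956 and ENSRNOT00000080487 had the smallest unadjusted p. ENSRNOT00000004956 had 104.9, 110.0, 67.1, 96.2 and 82.4 in SHR and a range from 90.7 to 298.2 with a median of 165.5 under neferine. Its difference was 0.80 (SE 0.257), with a limma adjusted p of 0.834. ENSRNOT00000080487 had 125.0, 110.7, 46.2, 110.1 and 96.1 in SHR and a range from 99.9 to 326.7 with a median of 179.3 under neferine. Its difference was 0.88 (SE 0.301), also with a limma adjusted p of 0.834. For both, Nef 4, 5 and 6 were the highest of all 16 libraries, and Nef 3 lay inside the SHR range.

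Between neferine-treated SHR and WKY, 35 of the 479 members were called in limma, 9 higher and 26 lower. That is 7.31% of the members, beside 4.1% of all tested rows (2.63% higher and 1.47% lower) and 5.01% (136 of 2717) of annotated rows with a mean from 10 to under 100. Without the 10 leading members 34 of 469 were called, 8 higher and 26 lower. The groups did not overlap for 52 members, 12 higher and 40 lower, beside 5.03% of all tested rows (3.14% higher and 1.89% lower). The median difference was -0.09 over the members and 0.04 over all tested rows.

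The split between higher and lower depended on scaling. Scaling to the same sum without the 10 leading rows gave 18 higher and 23 lower. Scaling to the same sum of all shared rows gave 7 higher and 35 lower, and median-of-ratios scaling gave 7 higher and 30 lower. For SHR against WKY the same 3 scalings gave 10 and 13, 9 and 14, and 8 and 10. The count for neferine against WKY was 17 without WKY 1, WKY 3, SHR 3 and SHR 4, 8 higher and 9 lower, and the median difference over the members was then 0.03. Calls over all tested rows also fell in that fit, from 1008 to 619. With single libraries left out the count of members ranged from 17 to 41, beside 719 to 1070 over all tested rows. Among the members it was 17 without WKY 1, 18 without WKY 3, 19 without WKY 4, 23 without Nef 1, 21 without Nef 4, 23 without Nef 5 and 23 without Nef 6.

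Because both comparisons use the same WKY libraries, their calls are not independent. There were 18 members called in both, 5 called for SHR alone and 17 called for neferine-treated SHR alone, and no test was made of whether those 2 differences differ. The largest rises in neferine-treated SHR were those of ENSRNOT00000024106 and ENSRNOT00000007747. ENSRNOT00000007747 had 81.6, 34.0, 87.8, 64.4 and 99.0 in WKY, 218.7, 144.3, 67.2, 243.6 and 149.4 in SHR, and a range from 125.9 to 489.3 with a median of 246.0 under neferine. Every neferine library was above every WKY library, Nef 4, 5 and 6 were the highest of all, and SHR overlapped with both groups. For both of these rises, all WKY values lay below the limit set on the mean of members. Neferine minus WKY was 1.77 (SE 0.402, limma adjusted p = 0.0192), and it was lost without WKY 3. The largest falls were again those of ENSRNOT00000090422, at -1.32 (SE 0.298, limma adjusted p = 0.0183), and ENSRNOT00000051483, at -1.19 (SE 0.247, limma adjusted p = 0.0103). The former was lost without WKY 1 or WKY 3, and both were lost without WKY 1, WKY 3, SHR 3 and SHR 4.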

How the data were processed

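RNA of 16 rat hearts was depleted of ribosomal RNA and made into libraries with NEBNext kits, per the labels' protocols. Each library has 1 table of transcript identifiers and decimal abundances, a linear signal that the authors had normalised before they deposited it. The unit, aligner, quantification tool, build and annotation are not given in the sources used here, and limma is named in the submitters' processing notes with no version. The values show no step of whole reads, so the depth is unknown and no counting interval is given. Precision rests on the number of animals. Deposited values were not rescaled.

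Differences were tested with limma 3.58.1 in R 4.3.3 on log2(value + 1), with a variance trend, a mean per group and no covariate. The fit was checked on simulated data with independent noise in each row and library. That check does not cover libraries that deviate together. Summaries used Python 3.11.15. Named members were the 10 of highest mean, the 2 largest called rises and falls of each comparison (or, where none was called, the 2 smallest unadjusted p-values in each direction), the 2 with the lowest and the 2 with the highest median coefficient of variation, and those at the edge of the rule. Any other was chosen after its values were seen. The members and lists were chosen with earlier results of these data known. Alternatives were other scalings, pseudocounts of 0.1 and 10, no filter, only the groups compared, robust moderation, a replicate block and libraries left out. Planned lists of heart genes could not be used, since no identifier was paired with a gene name.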

Additional observations from a re-analysis of the deposited data

Results flagged for a closer look

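Values that stood far from the rest of their group were sought in 81 groups of values, and 6 were found. Chance gives about 1 in 20 groups, so 6 of 81 is not far above it. The groups are not independent, since they share libraries and the members' share includes ENSRNOT00000050156 and ENSRNOT00000042098. The leading transcript ENSRNOT00000050156 had 28476 in WKY 6 against 76028 to 82235 in the other WKY libraries, and 59313 in Nef 6 against 71139 to 77623 in the other neferine libraries. ENSRNOT00000042098 had 15.7 in WKY 6 against 32086 to 38209, and the members' share of the sum there was 58.1% against 67.1% to 68.2%. ENSRNOT00000024106 had 26.2 in WKY 1 against 18.9 to 20.3 in the other WKY libraries. ENSRNOT00000017686 had 882 in Nef 6 against 943 to 962 in the other neferine libraries. Of these values, 3 came from WKY 6 and 2 from Nef 6.

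An annotated transcript listed in the neferine files alone, and so outside the members and every comparison, was abundant in some rats. ENSRNOT00000042928 had 3858 in Nef 6, 2178 in Nef 4 and 0.0958 to 0.110 in the other 4 neferine libraries. It was the only 1 of 869 annotated rows listed in 1 set of files that had a mean of at least 100 over the libraries that list it (1006). Its level in the WKY and SHR libraries was not analysed here.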

How the results depend on the processing

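Alternatives with sets of libraries left out were chosen after seeing the data. For SHR against WKY, called members went from 23 to 11 without WKY 1, WKY 3, SHR 3 and SHR 4, 5 without WKY 6, SHR 1 and SHR 6 and 13 with only the 2 groups fitted (21 to 9, 4 and 11 without the leading 10), and calls over all rows went from 720 to 420 and 440 with those sets of libraries left out. For neferine against WKY they went from 35 to 17 (34 to 17 without the leading 10) and from 1008 to 619 over all rows without the first set. For neferine against SHR, calls over all rows went from 1 to 7 without WKY 6, SHR 1 and SHR 6, 3 with only the 2 groups, 2 with a pseudocount of 10 and 4 scaled to the same sum. These left-out sets have fewer samples, and other causes were not tested.

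Little sign of pairing by replicate number was seen: of 14 same-numbered pairs 1 correlated above 0.1 (range -0.0732 to 0.123). Differently numbered pairs were not set beside them, so whether the numbers pair the samples is not settled. With a replicate block, called members were 7 for SHR against WKY (6 without the leading 10), 0 for neferine against SHR and 12 for neferine against WKY (12). Over all rows, 500 of 24577 were called for SHR against WKY with the block, a higher share than among the members. Among named members called for SHR against WKY, the block left ENSRNOT00000047550, ENSRNOT00000051483, ENSRNOT00000090422, ENSRNOT00000017686 and ENSRNOT00000075480 uncalled, with limma adjusted p of 0.0697, 0.0662, 0.161, 0.135 and 0.0896. Leaving out single libraries gave 15 to 24 members for SHR against WKY (13 to 22 without the leading 10; 572 to 728 over all rows), 0 for neferine against SHR (1 to 7 over all rows) and 17 to 41 for neferine against WKY (17 to 40; 719 to 1070).

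The members' share, by group (WKY, SHR, neferine), was 46.3%, 44.6% and 44.6% without the leading 10, 70.2%, 69.5% and 70.6% with a minimum mean of 50, and 60.9%, 60.4% and 61.4% with 200. Without single libraries it was 65.0% to 67.5%, 64.2% to 66.3% and 65.7% to 66.5%, and the median coefficient of variation was 13.4% to 16.5%, 14.4% to 18.2% and 9.52% to 11.0%. Without WKY 1, WKY 3, SHR 3 and SHR 4 the latter was 7.76% in WKY and 9.76% in SHR. Of 648 recomputed values of named members per comparison, 48, 0 and 26 lost a call and 1, 0 and 2 gained one, and no called direction reversed (0).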
